A study of Mus musculus with 3 samples.

Results

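The heat shock proteins and their DnaJ cochaperones were described in neuronal nuclei from mouse tissue dissected as lateral habenula (LHb). The members are the genes whose symbol begins with Hsp90, Hspa, Hspb, Hspd, Hspe, Hsph, Dnaja, Dnajb or Dnajc, without Hspbap1, Hspbp1 and Hspg2, which are no chaperones of these families. This gave 73 of the 32285 genes in the count table. Of these, 49 had at least 50 unique molecular identifiers (UMIs, each a counted RNA molecule) over all neuronal nuclei, 20 had fewer, and 4 (Dnajb13, Dnajc22, Hspb2 and Hspb9) had none.

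Nuclei were collected from 3 mothers, 3 virgin males and 3 virgin females. The mice of a group were pooled into 1 library, so that each group has 1 library and nuclei are not replicates. The LHb was cut by hand from 1250 µm brain sections, and nuclei carrying the nuclear-envelope tag KASH-GFP, labelled as BNST LHb neurons, were sorted in all 3 groups. Strain, age, the time after birth of the litter and the vector that delivers the tag were not stated for these samples in the sources used. Of 603 nuclei, 592 were annotated as neurons by the authors, 201 from mothers, 204 from virgin males and 187 from virgin females, and these were divided into the authors' clusters 0 to 4.

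Heat shock proteins are molecular chaperones: HSP70 proteins bind and release unfolded stretches of client proteins, J-domain (DnaJ) proteins bring clients to HSP70 and trigger its ATPase, HSP110 proteins exchange its nucleotide, and HSP90 takes over clients such as kinases and steroid receptors near their folded state. Separate sets work in the cytosol, the endoplasmic reticulum (ER) and mitochondria. Some members are made at all times, and others are switched on by heat shock factors or by the unfolded protein response of the ER. In neurons, J-domain proteins also act on synaptic vesicles and in the removal of clathrin coats.

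The libraries held 2691639 UMIs in neuronal nuclei of mothers, 2122919 in those of virgin males and 2718356 in those of virgin females. No cell barcode was shared between libraries. A pool of 1 cluster in 1 library held 17 to 65 nuclei and 181536 to 873414 UMIs. Pan-neuronal markers summed to 3911, 3748 and 3918 UMIs per 1000000 UMIs of the same nuclei (CPM) in mothers, virgin males and virgin females. Markers of the LHb summed to 1088, 1534 and 1361 CPM, and those of the thalamus, which borders the LHb, to 6437, 6536 and 5827 CPM. The thalamic sum differed between clusters more than between libraries, with 10358 to 10994 CPM in cluster 3 and 1000.2 to 1812 CPM in cluster 4. It was 6786 to 7418 CPM in cluster 0, 1951 to 2309 CPM in cluster 1 and 7853 to 8544 CPM in cluster 2. The LHb sum was 820 to 978, 1473 to 2584, 924 to 1292, 825 to 1487 and 1641 to 1906 CPM in clusters 0 to 4. Clusters 0, 2 and 3 thus had high thalamic sums, and which nuclei are of the LHb was not tested. Markers of the medial habenula were at 367 to 527 CPM in cluster 1 and at most 69.3 CPM in any library of the other clusters.

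Groups could not be tested against each other with a single library each, and no p-value is given. Intervals are exact 95% Poisson intervals for levels and conditional binomial intervals for ratios. They describe counting alone, so differences among animals, dissections or nuclei add error that is not in them. Ratios were also taken with each cluster, or each nucleus, given the same weight. The intervals given for such ratios are those of the summed UMIs, multiplied by the same factor as the ratio. They were not computed for the weighted ratio and may be too narrow. Levels are not compared between genes, because it is not given whether intronic reads were counted and genes differ in length.

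Response elements of both stress pathways are known in promoters of these families, and the windows below are shown because they belong to members whose levels are described in the results. RefSeq windows of GRCm38.p6, from 250 bases before to 50 bases after an annotated start, were found for 58 of the 73 members. The 3 short patterns below were searched on both strands. The heat shock element, taken as GAA, TTC and GAA with 2 bases between neighbours, was found in windows of 4 members (Dnajb6, Hspd1, Hspe1 and Hsph1) and in 0.603% of all 32851 windows. The ER stress response element, CCAAT and CCACG with 9 bases between them, was found in windows of Dnajc3, Hsp90b1 and Hspa5 and in 0.119% of all windows. Its second form, ATTGG and CCACG with 1 base between them, was found in the window of Dnajb11 and in 0.0365% of all windows. No window of a member held more than 1 kind of pattern. A match is a string of letters and not a measured binding site. In the sequences, written 5′ to 3′ on the strand of the gene, the matches are in capitals.

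The ER members with a match come first: Hspa5 (chr2:34771840-34772139, plus strand), Hsp90b1 (chr10:86705395-86705694, minus strand, with a match on either strand), Dnajc3 (chr14:118937682-118937981, plus strand) and Dnajb11 (chr16:22857595-22857894, plus strand).
Hspa5: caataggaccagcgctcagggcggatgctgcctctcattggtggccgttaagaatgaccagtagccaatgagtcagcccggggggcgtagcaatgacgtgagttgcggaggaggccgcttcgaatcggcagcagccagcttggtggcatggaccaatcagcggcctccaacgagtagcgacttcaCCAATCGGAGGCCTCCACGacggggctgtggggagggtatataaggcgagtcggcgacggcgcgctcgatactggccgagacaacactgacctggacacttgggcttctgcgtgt
Hsp90b1: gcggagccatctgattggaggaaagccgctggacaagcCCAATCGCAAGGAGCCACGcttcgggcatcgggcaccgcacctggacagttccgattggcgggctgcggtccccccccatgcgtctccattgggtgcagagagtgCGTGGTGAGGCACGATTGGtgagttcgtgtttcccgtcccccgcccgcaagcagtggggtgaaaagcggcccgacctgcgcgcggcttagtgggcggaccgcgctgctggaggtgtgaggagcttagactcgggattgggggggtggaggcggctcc
Dnajc3: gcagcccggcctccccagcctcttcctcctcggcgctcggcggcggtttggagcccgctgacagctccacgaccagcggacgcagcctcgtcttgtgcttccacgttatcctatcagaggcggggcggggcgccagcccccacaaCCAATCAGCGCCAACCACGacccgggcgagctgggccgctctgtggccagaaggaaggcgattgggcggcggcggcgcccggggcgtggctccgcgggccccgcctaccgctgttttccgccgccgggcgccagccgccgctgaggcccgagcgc
Dnajb11: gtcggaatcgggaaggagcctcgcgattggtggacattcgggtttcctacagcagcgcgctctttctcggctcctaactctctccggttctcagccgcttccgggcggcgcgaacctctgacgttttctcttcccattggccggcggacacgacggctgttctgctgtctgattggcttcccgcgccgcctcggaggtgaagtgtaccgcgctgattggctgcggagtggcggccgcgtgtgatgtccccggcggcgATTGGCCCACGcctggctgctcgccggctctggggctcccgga

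The heat shock element is shown for Hspe1 (chr1:55087898-55088197, plus strand), which shares its promoter stretch with Hspd1 on the other strand, and for Hsph1 (chr5:149636266-149636565, minus strand, 1 of 2 annotated starts). In Hspe1, 2 overlapping matches form a single run.
Hspe1: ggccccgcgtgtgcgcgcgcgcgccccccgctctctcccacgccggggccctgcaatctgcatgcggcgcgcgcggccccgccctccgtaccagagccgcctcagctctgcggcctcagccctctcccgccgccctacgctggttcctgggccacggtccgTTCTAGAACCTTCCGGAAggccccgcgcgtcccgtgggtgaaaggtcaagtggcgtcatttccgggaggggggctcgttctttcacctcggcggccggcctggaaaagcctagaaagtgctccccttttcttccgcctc
Hsph1: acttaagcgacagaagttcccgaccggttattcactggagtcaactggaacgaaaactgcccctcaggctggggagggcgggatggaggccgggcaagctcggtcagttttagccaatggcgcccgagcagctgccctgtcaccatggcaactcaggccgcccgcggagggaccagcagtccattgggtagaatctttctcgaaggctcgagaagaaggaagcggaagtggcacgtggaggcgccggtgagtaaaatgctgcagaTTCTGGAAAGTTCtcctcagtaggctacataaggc

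As a family, the members took up a similar part of the RNA in every library. Their UMIs summed to 3255 CPM in mothers, 3265 CPM in virgin males and 3429 CPM in virgin females. The median log2 ratio of the members was -0.07 for mothers over virgin females (48 members measured), -0.04 for virgin males over virgin females (47 members) and 0.03 for mothers over virgin males (47 members). Over all genes the same medians were -0.01, -0.02 and 0.01. A member counted as measured in a comparison where both libraries together held at least 50 of its UMIs.

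Against virgin females, both cytosolic HSP90 genes were lower in the mothers' library, and so were 1 of 2 measured cytosolic HSP70 genes, 1 of 3 HSP110 genes and 1 of 7 cytosolic DNAJA and DNAJB genes. The interval of the ratio lay below 1 for 7 of 48 members (14.6%), against 8.67% of the 10388 genes measured, and above 1 for 3 members (6.25%), against 8.05%. The 7 were the 2 cytosolic HSP90 genes, Hspa4, Hspa8, Dnaja2 and, of the ER, Hspa5 and Hsp90b1. Each of these 7 had 677 to 1471 UMIs over neuronal nuclei. A counting interval leaves out 1 more easily where UMIs are many. Here and in the other comparisons all genes were not matched to the members on UMIs. The 3 above 1 were Dnajc19, Hspa12a and Dnajc12. Past a ratio of 1.5 either way stood 1 member, Dnajc12 (2.78% of all genes were past it upward), and none downward (2.87% of all genes).

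**Figure D1:**
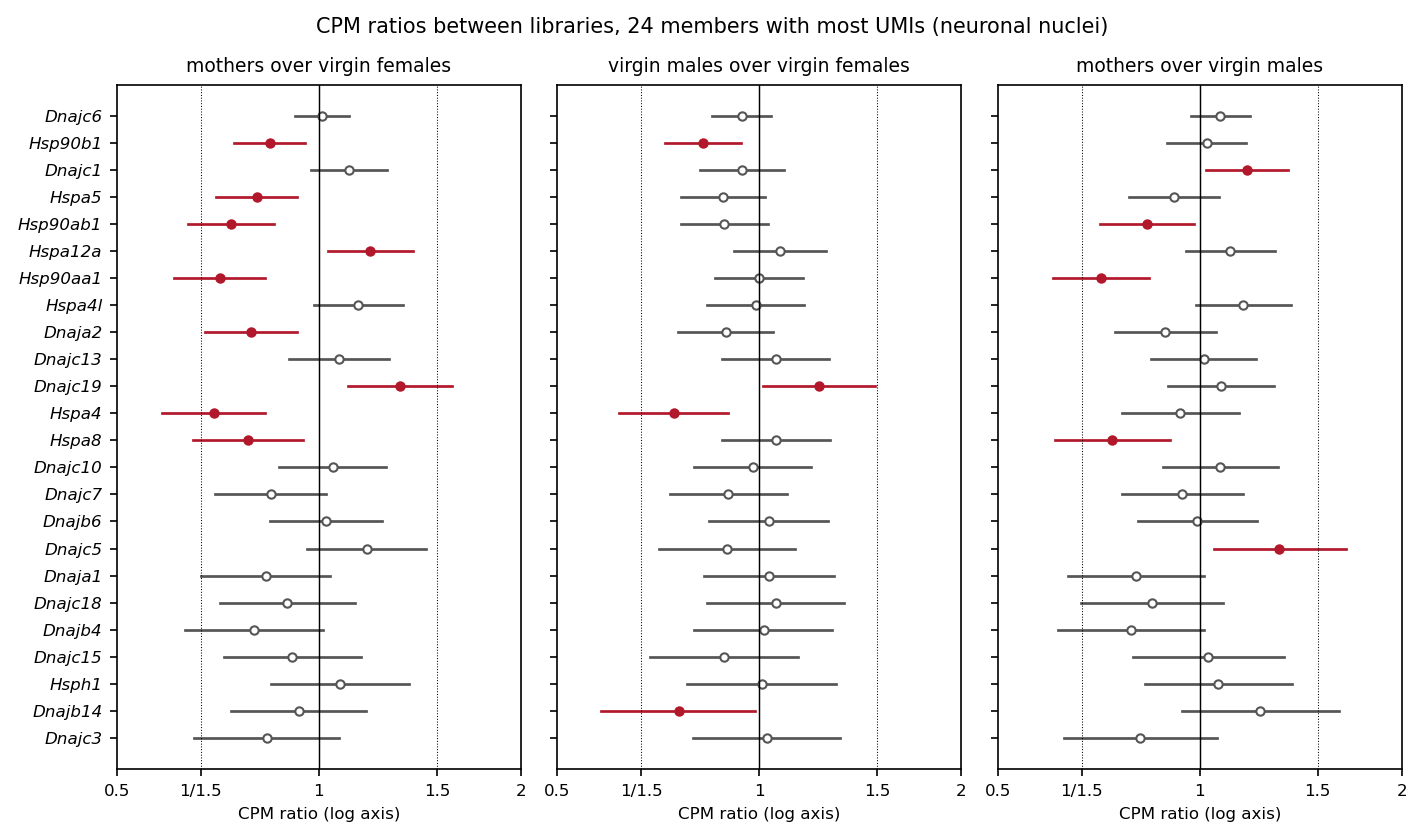
Ratios of CPM between libraries (x axis, logarithmic) for the 24 members with most UMIs, one panel per comparison, with 95% counting intervals. Filled red points have intervals that leave out 1, the solid line marks 1 and the dotted lines 1.5-fold either way. Hsp90aa1, Hsp90ab1 and Hspa8 lie left of 1 in both panels with mothers, and Hspa4 lies left of 1 in both panels with virgin females as denominator.

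Hsp90aa1, the stress-inducible cytosolic HSP90, was at 104.8 CPM in mothers, 147.0 CPM in virgin males and 147.1 CPM in virgin females. Only the mothers' library stood apart, since its counting interval (92.9 to 117.7 CPM) lay below those of virgin males (131.1 to 164.2 CPM) and of virgin females (133.1 to 162.3 CPM). The ratio was 0.712 (0.609 to 0.831) for mothers over virgin females and 0.713 (0.605 to 0.840) for mothers over virgin males. It was 0.999 (0.859 to 1.16) for virgin males over virgin females. When each nucleus had the same weight and nuclei under 3000 UMIs were left out, the levels were 105.5 CPM in mothers, 159.8 CPM in virgin males and 154.0 CPM in virgin females, and the difference was no smaller. With the 5 clusters weighted equally, the log2 ratio of mothers over virgin females was -0.34, against -0.49 as measured.

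Hsp90ab1, the constitutive cytosolic HSP90, was at 117.8 CPM in mothers, 141.3 CPM in virgin males and 159.3 CPM in virgin females. Its ratio was 0.739 (0.638 to 0.857) for mothers over virgin females and 0.833 (0.709 to 0.979) for mothers over virgin males. The value of virgin males lay between the other libraries. With the 5 clusters weighted equally, the ratio of mothers over virgin females was 0.835 (0.720 to 0.967). Cluster 1, where Hsp90ab1 had its highest mean, held 39 neuronal nuclei of mothers, 53 of virgin males and 65 of virgin females. Hspa8, the constitutive cytosolic HSP70, which also strips clathrin from vesicles, was at 75.0 CPM in mothers, 101.3 CPM in virgin males and 95.6 CPM in virgin females. Its ratio was 0.785 (0.650 to 0.947) for mothers over virgin females and 0.741 (0.608 to 0.902) for mothers over virgin males. The interval for mothers over virgin females takes in 1 with clusters weighted equally, at 0.869 (0.719 to 1.05), with nuclei weighted equally, at 0.878 (0.727 to 1.06), and without the 5% of nuclei with most UMIs, at 0.838 (0.685 to 1.02).

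Of the 3 HSP110 genes, Hspa4 was at 80.6 CPM in mothers, 86.2 CPM in virgin males and 115.5 CPM in virgin females. Here it was the virgin female library that was high, with a counting interval (103.1 to 129.0 CPM) above those of mothers (70.2 to 92.1 CPM) and virgin males (74.2 to 99.6 CPM). The ratio was 0.698 (0.584 to 0.832) for mothers and 0.746 (0.618 to 0.898) for virgin males over virgin females. Hspa4 was lower in mothers than in virgin females in 5 of 5 clusters, as was Dnaja1. These were 2 of 48 members (4.17%), against 3.78% of all genes. Higher in mothers in 5 of 5 clusters were Dnajc19 and Hspa4l, again 2 of 48 (4.17%, background 4.69%). Hspa4l, its close relative, was at 138.2, 119.2 and 120.7 CPM in mothers, virgin males and virgin females, with intervals of every ratio that include 1. Hsph1 was at 55.7, 52.3 and 51.9 CPM.

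Among the J-domain proteins that serve cytosolic HSP70, Dnaja2 was at 105.5 CPM in mothers, 118.7 CPM in virgin males and 133.2 CPM in virgin females. Its ratio of mothers over virgin females was 0.792 (0.676 to 0.928). Dnaja1, also a cochaperone of HSP70, was at 56.1, 69.7 and 67.3 CPM in mothers, virgin males and virgin females, and Dnajb4 at 48.3, 61.2 and 60.3 CPM. The intervals of their ratios include 1 (0.667 to 1.04 and 0.631 to 1.01 for mothers over virgin females). Dnajb6, which keeps aggregation-prone proteins soluble, was at 81.7, 82.4 and 79.8 CPM, and Dnajb2 at 27.5, 25.9 and 30.5 CPM in mothers, virgin males and virgin females.

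In the ER, Hspa5 (BiP), the HSP70 of that compartment, was at 137.1 CPM in mothers, 149.8 CPM in virgin males and 169.6 CPM in virgin females. The ratio of mothers over virgin females was 0.808 (0.703 to 0.929). Hsp90b1 (GRP94), the HSP90 of the ER, was at 184.3 CPM in mothers, 179.9 CPM in virgin males and 218.1 CPM in virgin females. Its ratio over virgin females was 0.845 (0.748 to 0.953) in mothers and 0.825 (0.723 to 0.940) in virgin males, and for virgin males the interval takes in 1 with clusters weighted equally, at 0.883 (0.774 to 1.01). The windows of both hold an ER element match printed above. Dnajc3 and Dnajb11, whose windows hold one as well, were at 45.0, 55.1 and 53.7 CPM and at 26.4, 22.6 and 33.5 CPM in mothers, virgin males and virgin females. Dnajb11, a BiP cochaperone, had a ratio of 0.675 (0.466 to 0.968) for virgin males over virgin females. It was 0.876 (0.604 to 1.26) with clusters weighted equally and 0.724 (0.484 to 1.07) without the 5% of nuclei with most UMIs, and both intervals take in 1. Dnajb9, another one and a target of the unfolded protein response, was at 22.7, 22.6 and 25.4 CPM. Hspa13 was at 17.1, 25.4 and 24.6 CPM, with intervals of every ratio that include 1.

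The 3 comparisons share libraries, so their counts are not independent. For virgin males over virgin females, 5 of 47 members (10.6%) had an interval below 1, against 7.86% of 10024 genes, and 1 (2.13%) above 1, against 6.58%. The 5 were Hsp90b1, Hspa4, Dnajb14, Dnajc27 and Dnajb11, and the 1 above was Dnajc19. None passed 1.5-fold in either direction, where 2.23% of all genes did so upward and 3.26% downward. For mothers over virgin males, 4 of 47 members (8.51%) lay above 1, against 7.51% of 9990 genes, and 3 (6.38%) below, against 6.48%. Those below were Hsp90aa1, Hsp90ab1 and Hspa8, and those above were Hspe1, Dnajc1, Dnajc5 and Dnajc12. Dnajc12 alone passed 1.5-fold upward (2.92% of all genes), and none did so downward (2.12%). These shares lie near the background of all genes. In 5 of 5 clusters, 5 members were higher in mothers than in virgin males (10.6%, background 5.03%), namely Hspe1, Dnajc1, Dnajc5, Dnajb14 and Dnajc6, and 4 lower (8.51%, background 3.23%), namely Dnajb4, Dnaja1, Dnajc16 and Hspa13. For virgin males over virgin females 1 member, Hspd1, was higher in 5 of 5 clusters (2.13%, background 3.40%) and none lower (background 3.93%).

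Mitochondrial members showed no common direction. Dnajc19, a J-domain protein of the mitochondrial import motor, was at 107.4 CPM in mothers, 99.9 CPM in virgin males and 81.3 CPM in virgin females. The ratio over virgin females was 1.32 (1.10 to 1.58) in mothers, higher in 5 of 5 clusters, and 1.23 (1.01 to 1.49) in virgin males. Its gene overlaps Fxr1 on the opposite strand, and since strand use in counting is not given, the UMIs of these genes cannot be told apart. Hspe1, the mitochondrial HSP10, was at 34.9, 24.0 and 30.5 CPM in mothers, virgin males and virgin females, with a ratio of 1.45 (1.02 to 2.09) for mothers over virgin males. Its partner Hspd1 (HSP60), on the same divergent promoter, was at 35.7, 41.0 and 34.6 CPM, with intervals of every ratio that include 1. Those genes overlap at their starts. Hspa9 (mortalin), the mitochondrial HSP70, was at 50.9, 54.2 and 47.1 CPM.

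Of the 6 members that act on vesicles and endosomes, 4 were measured. Dnajc6 (auxilin), which recruits Hspa8 to clathrin coats, was at 336.6 CPM in mothers, 313.7 CPM in virgin males and 332.9 CPM in virgin females. Its ratios were all within 10% of 1, the farthest being mothers over virgin males at 1.07 (0.970 to 1.19). Dnajc13, an endosomal J-domain protein, was at 104.0, 102.7 and 97.1 CPM. Dnajc5, the cysteine string protein of synaptic vesicles, was at 78.0 CPM in mothers, 59.4 CPM in virgin males and 66.2 CPM in virgin females, with a ratio of 1.31 (1.05 to 1.65) for mothers over virgin males. Dnajc27, a Rab-like GTPase with a J domain, was at 34.2, 27.8 and 38.6 CPM, and its ratio for virgin males over virgin females was 0.720 (0.514 to 0.999), with an interval that takes in 1 in 4 of 12 other settings.

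Hspa12a, an atypical member of the HSP70 family, was at 152.3 CPM in mothers, 137.1 CPM in virgin males and 127.7 CPM in virgin females. The log2 ratio of mothers over virgin females was 0.25 as measured and 0.11 with the 5 clusters weighted equally, where the interval of the ratio takes in 1, and the gene differed much more between clusters (below). It overlaps Eno4 on the opposite strand. Dnajc12, known in humans as a cochaperone of the aromatic amino acid hydroxylases, had 63 UMIs in mothers, 25 in virgin males and 30 in virgin females. Of the 63, 34 came from 1 nucleus of cluster 0, the deepest of the mothers' library (35636 UMIs). Its ratio of mothers over virgin females was 2.12 (1.35 to 3.39), and 1.09 (0.622 to 1.91) without the richest nucleus of each library.

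Several members, among them the inducible Hspa1a, Hspa1b and Dnajb1, were barely detected in neuronal nuclei. This was not so for every inducible member, since Hsp90aa1 had 994 UMIs. Dnajb1, the inducible partner of HSP70, had 40 UMIs in 35 of 592 nuclei, at 4.46, 5.18 and 6.25 CPM in mothers, virgin males and virgin females. Over all 3 libraries, Hspa1a had 4 UMIs, Hspa1b 5, Hspb1 10, Hspb8 4 and Hspa2 7. Hspa1a and Hspa1b are near-identical neighbours, so reads may have been lost or split between them. With 3 UMIs as the floor (1.11, 1.41 and 1.10 CPM in mothers, virgin males and virgin females), Hspa1a, Hspa1b, Hspb1, Hspb8 and Hspa2 held too few UMIs to compare libraries. Dnajb1 was above that floor in each library but under the minimum of 50 UMIs for a ratio. Of the 20 members under 50 UMIs, none held more than 3 UMIs in any nucleus.

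The same comparison was made within each cluster, in pools of unequal depth. In cluster 0, where mothers had 47 nuclei, virgin males 64 and virgin females 61, the interval of mothers over virgin females lay below 1 for 5 of 31 members (16.1%), against 6.89% of 5329 genes. These were Hsp90aa1, Hsp90ab1, Hspa8, Dnaja2 and Hsp90b1. In clusters 1, 2 and 3 there was 1 such member each, of 32 (3.12%, background 7.49%), 25 (4.00%, background 7.10%) and 19 (5.26%, background 6.72%), and in cluster 4 none of 14 (background 5.92%). Above 1 stood 3 members in cluster 0 (9.68%, background 6.34%), 1 in cluster 1 (3.12%, background 6.58%), 1 in cluster 3 (5.26%, background 6.81%) and none in clusters 2 and 4 (backgrounds 8.21% and 7.12%). Dnajc19 was above 1 in clusters 0 and 1. Whether these shares differ between clusters was not tested. Over all clusters, single nuclei of virgin females held up to 48 UMIs of Hsp90aa1, 34 of Hsp90ab1, 31 of Hsp90b1 and 19 of Hspa8. In the same order, the most in a nucleus was 22, 22, 13 and 8 in mothers and 11, 7, 9 and 9 in virgin males. For Dnaja2 it was 5, 6 and 7 in mothers, virgin males and virgin females. The counts within clusters were not repeated without such nuclei.

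Hsp90aa1 in cluster 0 was at 76.8 CPM in mothers, 153 CPM in virgin males and 161 CPM in virgin females, a ratio of 0.476 (0.338 to 0.660) for mothers over virgin females. In cluster 3 it was at 57.5 CPM in mothers, 108 CPM in virgin males and 118 CPM in virgin females, a ratio of 0.487 (0.297 to 0.793). In those clusters, as measured, the mothers' library was the low one and both virgin libraries were close together. It was at 133, 186 and 169 CPM in cluster 1, at 133, 128 and 111 CPM in cluster 2 and at 141, 176 and 126 CPM in cluster 4, and there the intervals of the libraries overlap. Whether the ratio differs between clusters was not tested. Of the 400 UMIs of Hsp90aa1 in virgin females, 48 came from 1 nucleus. The most in a nucleus was 22 in mothers and 11 in virgin males. Levels of Hsp90aa1 by cluster without these nuclei were not computed, so the ratios within clusters may rest in part on them.

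Hspa8 in cluster 0 was at 39.2 CPM in mothers, 76.6 CPM in virgin males and 91.6 CPM in virgin females. The ratio of mothers over virgin females was 0.428 (0.264 to 0.673). Hsp90ab1 there was at 88.9, 109 and 160 CPM, with a ratio of 0.554 (0.402 to 0.757), and Dnaja2 at 85.9, 115 and 149 CPM, with a ratio of 0.577 (0.415 to 0.793). As measured, virgin males lay between mothers and virgin females for these genes. Without the richest nucleus of each library, Hspa8 in cluster 0 was at 39.2, 76.6 and 72.4 CPM in mothers, virgin males and virgin females. There virgin males were no longer in between. Hsp90b1 in cluster 0 was at 179, 176 and 254 CPM in mothers, virgin males and virgin females, so that, as measured, virgin females alone were high. In the same cluster, mitochondrially encoded RNA made up 0.0709% of UMIs in mothers, 0.105% in virgin males and 0.248% in virgin females, and RNA of ribosomal protein genes 0.309%, 0.341% and 0.346%. Their part in the chaperone values was not tested.

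**Figure D2:**
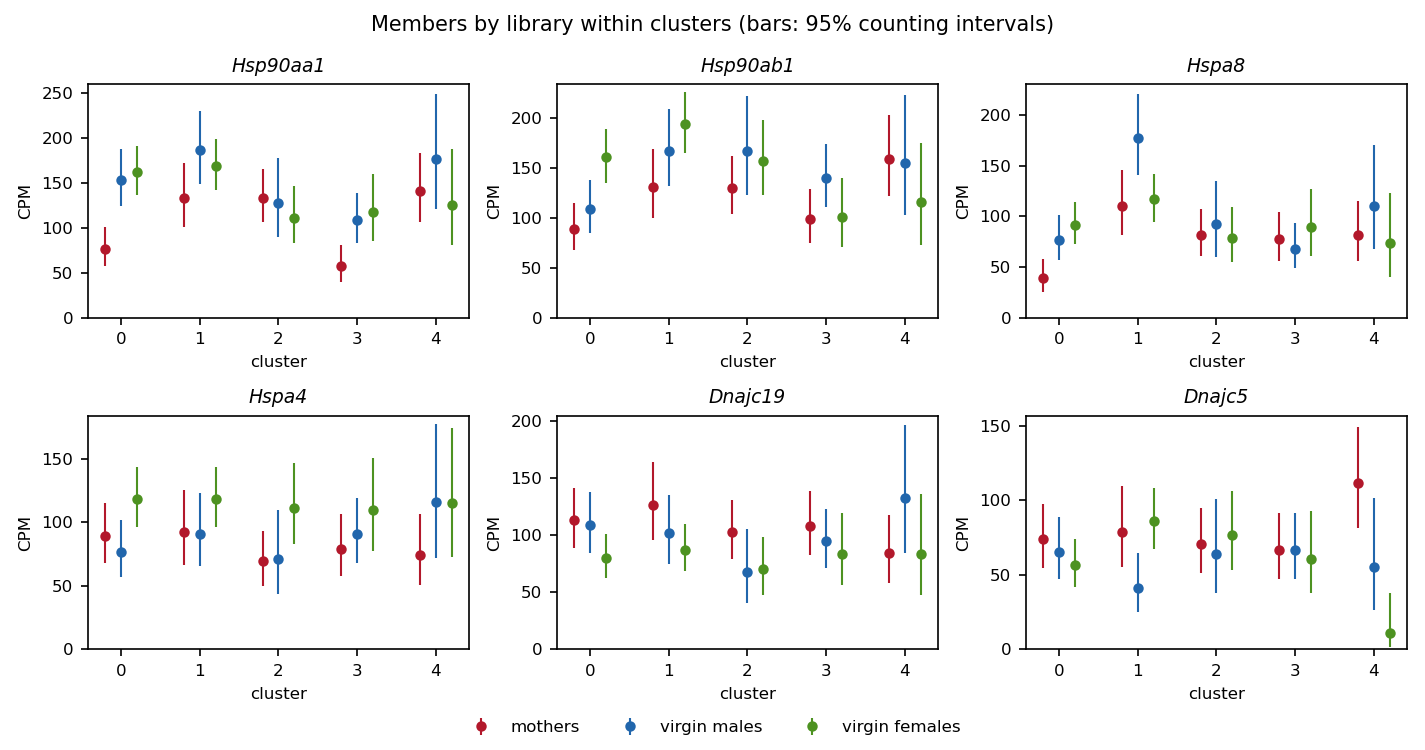
CPM (y axis) of 6 members by cluster (x axis), with mothers, virgin males and virgin females from left to right in each cluster and bars for exact 95% Poisson intervals. Hsp90aa1 and Hspa8 are low in mothers in cluster 0, and for Dnajc5 in cluster 4 the mothers' point is at 111 CPM, that of virgin males at 55.1 CPM and that of virgin females at 10.5 CPM.

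Outside cluster 0 single members stood out. Hspa8 in cluster 1 was at 110 CPM in mothers, 178 CPM in virgin males and 117 CPM in virgin females, the highest value being that of virgin males. This pool holds 5 nuclei with many UMIs of Ttr, a choroid plexus gene, and without them Hspa8 was at 179 CPM in virgin males. In cluster 3, Dnajc6 was at 408, 289 and 319 CPM and Hsph1 at 101, 61.2 and 101 CPM in mothers, virgin males and virgin females. For mothers over virgin males in cluster 3, 4 of 24 members lay above 1 (16.7%, background 9.80%), namely Dnajc6, Hsph1, Dnajc15 and Hspa12a, and 1 below (4.17%, background 8.69%), Hsp90aa1.

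A smaller share of the members than of all genes differed between clusters. Here the mean CPM of the 3 libraries in a cluster was set against the mean of the other 4 clusters, and a member was counted where the ratio was at least 1.5 either way and had the same direction in 3 of 3 libraries. This held in at least 1 cluster for 20 of 49 members (40.8%), against 56.6% of 11467 genes. The ratio of the highest to the lowest cluster had a median of 1.70 over the members and 1.95 over all genes, which were not matched to the members on UMIs. Since the clusters were made from these same counts, the values are a description and carry no test.

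**Figure D3:**
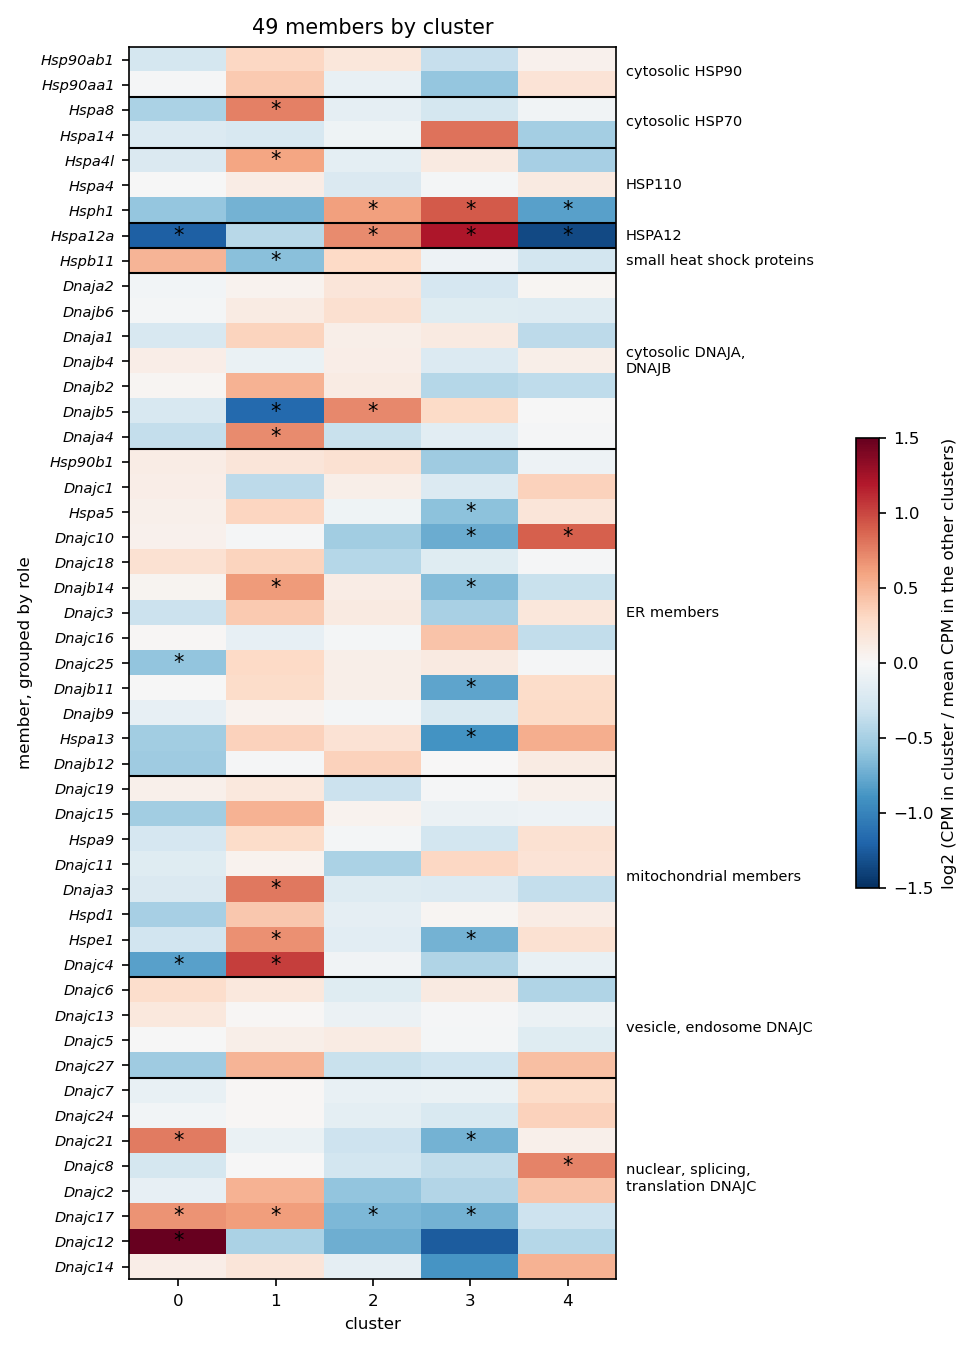
Log2 ratio of the mean CPM in a cluster to the mean of the other 4 clusters (colour, ending at 1.5 either way) for the 49 members with at least 50 UMIs, grouped by role. Asterisks mark ratios of at least 1.5 in either direction with the same direction in 3 of 3 libraries. Hspa12a and Hsph1 are high in clusters 2 and 3, and several ER members are low in cluster 3.

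Hspa12a had the clearest cluster pattern. It was at 305, 222 and 245 CPM in cluster 3 and at 196, 238 and 175 CPM in cluster 2 (mothers, virgin males, virgin females). In cluster 1 it was at 106, 99.7 and 126 CPM, in cluster 0 at 64.8, 67.0 and 71.0 CPM and in cluster 4 at 69.3, 49.6 and 68.1 CPM. Every library of clusters 2 and 3 was above every library of the others, and the mean of cluster 3 was 4.13 times that of cluster 4. The thalamic marker sum was 10358 to 10994 CPM in cluster 3 and 7853 to 8544 CPM in cluster 2, and 6786 to 7418 CPM in cluster 0. Its part in the Hspa12a values was not tested.

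Hsph1 (HSP105), whose window above holds a heat shock element match, was also higher in clusters 2 and 3 by the 1.5-fold rule. It was at 101, 61.2 and 101 CPM in cluster 3 and at 80.2, 78.1 and 67.7 CPM in cluster 2 in mothers, virgin males and virgin females. In cluster 4 it was at 32.2, 22.0 and 47.1 CPM, with every library below those of clusters 2 and 3. Its relatives differed from it. Hspa4l was highest in cluster 1, at 169, 182 and 150 CPM, and Hspa4 differed little, with cluster means of 83.8 to 102 CPM. Dnajb5, a J-domain protein of the cytosol, was highest in cluster 2, at 32.1, 24.9 and 24.0 CPM, and lowest in cluster 1, at 4.51, 15.2 and 8.25 CPM.

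**Figure D4:**
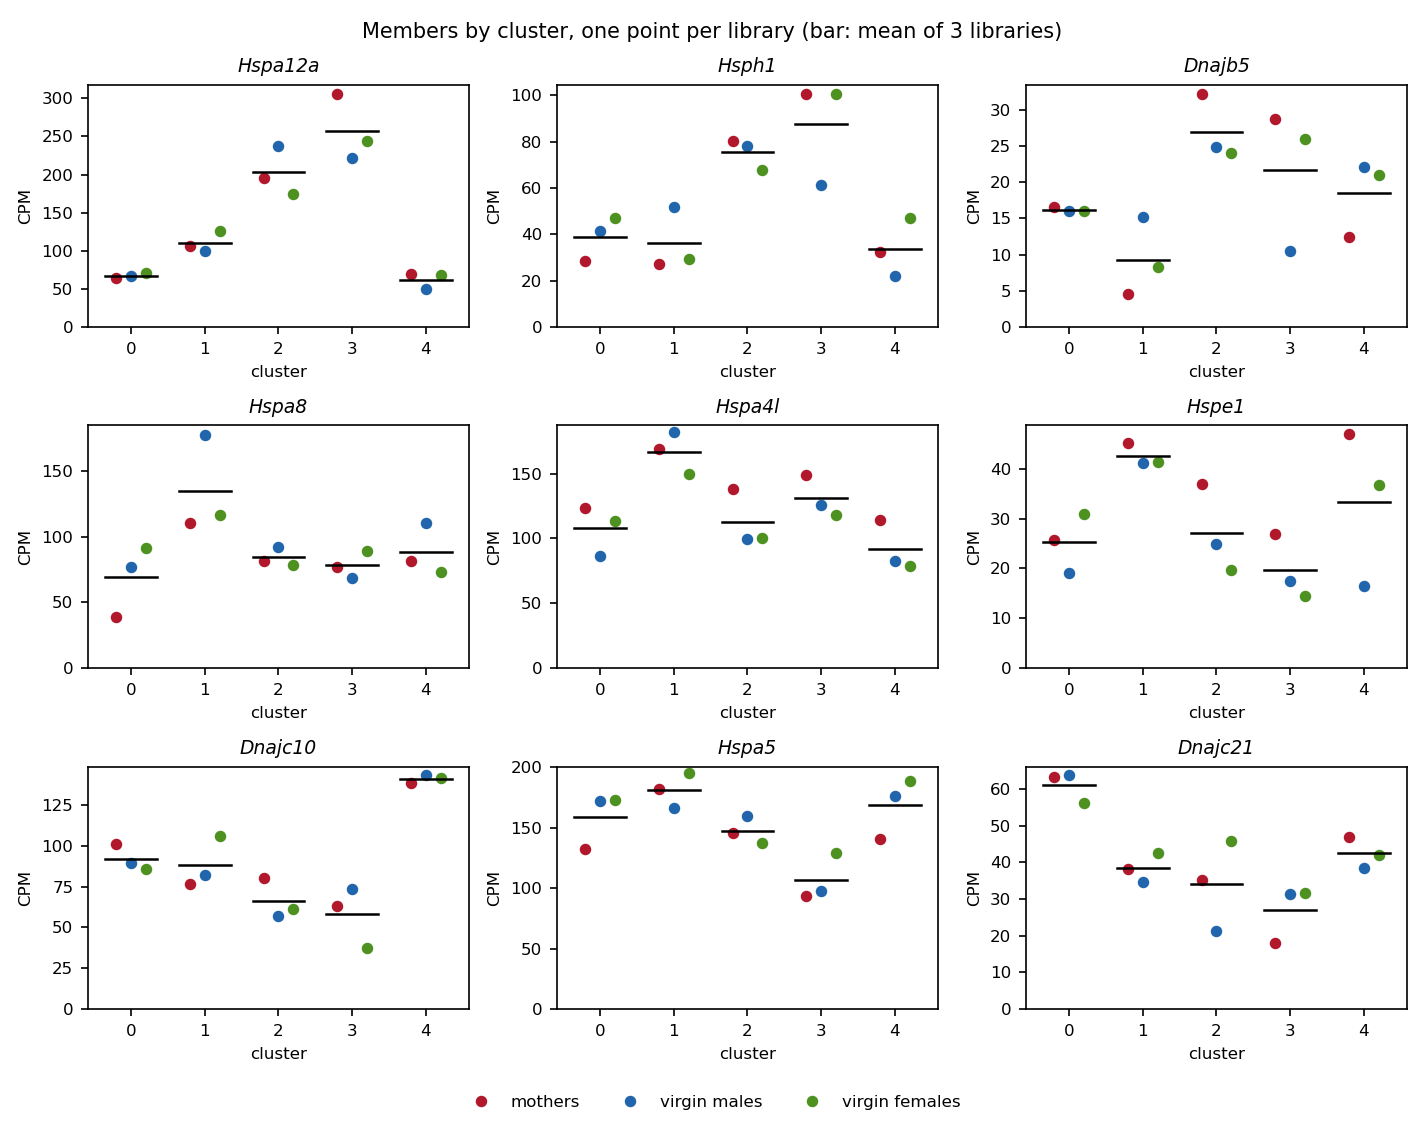
CPM (y axis) of 9 members by cluster (x axis), one point per library with mothers, virgin males and virgin females from left to right, and a bar for the mean of the 3 libraries. Hspa12a reaches 305 CPM in cluster 3, Hspa8 and Hspa4l are highest in cluster 1, Dnajc10 in cluster 4 and Dnajc21 in cluster 0.

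Cluster 1 was the highest cluster of 22 of the 49 members (44.9%), against 28.5% of all genes. By the 1.5-fold rule 8 members were higher there (16.3%, background 13.9%) and 2 lower (4.08%, background 11.5%). The 8 were Hspa8, Hspa4l, Hspe1, Dnaja3, Dnaja4, Dnajc4, Dnajb14 and Dnajc17, and the 2 were Dnajb5 and Hspb11. Without the richest nucleus of each library the ratio was 1.43 for Hspa4l and 1.46 for Hspe1. Without the nuclei rich in Ttr it was 1.49 for Dnaja4. With nuclei weighted equally it was 1.38 for Dnajc17, 1.31 for Hspa4l and 1.495 for Hspe1. Without the 5% of nuclei with most UMIs it was 1.45 for Dnajb14 and for Hspa4l. All of these fell short of 1.5. Dnajb5 was at 0.522 with nuclei weighted equally and 0.493 without those top nuclei, but no longer lower in every library. Hspa8 was at 110, 178 and 117 CPM in cluster 1 and at most 110 CPM in any library of the others. Of the 8 mitochondrial members, 7 had their highest mean in cluster 1, among them Hspe1 (45.1, 41.2 and 41.3 CPM), Hspd1 (47.3, 52.0 and 41.3 CPM) and Dnaja3 (51.8, 56.3 and 61.3 CPM), a mitochondrial J-domain protein that overlaps Coro7 and Vasn. Dnajc4 had 70 UMIs in all, at 20.3, 10.8 and 15.3 CPM in cluster 1 and 6.03, 6.38 and 4.58 CPM in cluster 0. Hspb11 (IFT25), named a small heat shock protein but part of intraflagellar transport, was lowest there, at 18.0, 17.3 and 14.1 CPM. In this cluster ribosomal protein genes made up 0.391% to 0.413% of UMIs and medial habenula markers were high, and their part in these values was not tested.

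Cluster 3 was the lowest cluster of 21 of 49 members (42.9%), against 31.2% of all genes. By the 1.5-fold rule 8 members were lower there (16.3%, background 21.2%) and 2 higher (4.08%, background 7.40%). Of the 13 ER members, 8 had their lowest mean in cluster 3 and 5 passed the rule, namely Hspa5, Hspa13, Dnajb11, Dnajb14 and Dnajc10. The others that passed were Hspe1, Dnajc17 and Dnajc21. Without the 5% of nuclei with most UMIs the ratio was 0.674 for Dnajb14, 0.741 for Hspe1 and 0.753 for Dnajc17. With nuclei weighted equally it was 0.682 for Hspe1 and 0.695 for Dnajc17. All of these fell short of 1.5-fold. Hspa5 was at 93.4, 97.9 and 129 CPM in cluster 3 in mothers, virgin males and virgin females, and at 182, 167 and 196 CPM in cluster 1, with no overlap. Dnajb11 was at 19.8, 17.5 and 14.4 CPM in cluster 3 and Hspa13, an ER and microsome protein of the HSP70 family, at 14.4, 15.7 and 11.5 CPM. The ratio of cluster 3 to the others was 0.651 for Hspa5, 0.577 for Dnajb11 and 0.536 for Hspa13.

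Hsp90b1 and Dnajc3 did not reach 1.5-fold but were also lowest in cluster 3. Hsp90b1 was at 144, 136 and 141 CPM there, below each library of the other clusters (171 to 254 CPM). Dnajc3, an ER cochaperone that also limits the kinase of the unfolded protein response, was at 25.1, 47.2 and 46.0 CPM. Of 18 other ER folding and unfolded protein response genes measured, 2 were lower in cluster 3 (Pdia4 and Pdia6) and 2 higher (Syvn1 and Edem1), where 21.2% of all genes were lower and 7.40% higher. Cluster 3 also had the lowest share of ribosomal protein RNA, 0.247% to 0.275% of UMIs against 0.309% to 0.430% in the other clusters, and in each library the deepest nuclei, with medians of 12968 to 19364 UMIs. Their part in the ER values was not tested.

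Cluster 4 was marked by Dnajc10 (ERdj5), which reduces disulfide bonds of misfolded ER proteins. It was at 139, 143 and 141 CPM there in mothers, virgin males and virgin females, and at most 106 CPM in any library of the other clusters. In cluster 3 it was at 62.9, 73.5 and 37.4 CPM. Dnajc8, a spliceosome-associated J-domain protein, was the other member higher in cluster 4, at 54.5, 66.1 and 73.3 CPM, making 2 of 49 (4.08%, background 12.1%). Hsph1 and Hspa12a were the 2 lower ones (4.08%, background 14.4%). Dnajc6 had its lowest mean in cluster 4, at 238, 220 and 272 CPM.

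In cluster 0, 3 members were higher (6.12%, background 8.17%) and 3 lower (6.12%, background 12.2%). Dnajc21, which works in ribosome assembly, was at 63.3, 63.8 and 56.1 CPM in mothers, virgin males and virgin females, and at most 47.0 CPM in any library of the other clusters. Dnajc17, a nuclear J-domain protein, was at 31.6, 20.8 and 19.5 CPM in cluster 0 and at 8.98, 15.7 and 8.63 CPM in cluster 3. It overlaps Zfyve19 on the opposite strand. Dnajc12 was at 70.8, 16.0 and 12.6 CPM in cluster 0, and at 20.7, 13.0 and 12.6 CPM without the richest nucleus of each library, where its ratio to the other clusters was 1.74 instead of 3.47. Dnajc25 was at 13.6, 25.5 and 20.6 CPM, which with Dnajc4 and Hspa12a made up the lower members. In cluster 2, 3 members were higher (6.12%, background 5.08%), namely Hspa12a, Hsph1 and Dnajb5, and 1 lower (2.04%, background 14.5%), Dnajc17. Without the richest nucleus of each library the ratio was 1.39 for Hsph1, 1.43 for Dnajb5 and 0.670 for Dnajc17 in cluster 2 and 0.679 for Dnajc25 in cluster 0, all short of 1.5-fold. Dnajc4 in cluster 0 was at 0.623 but no longer lower in 3 of 3 libraries.

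Genes that work with the chaperones were counted from lists of the pathway. Of 15 HSP90 cochaperones, 1 was at least 1.5-fold higher in mothers than in virgin females and 2 lower, against 2.78% and 2.87% of all genes. Cdc37, which loads kinases onto HSP90, was at 16.3 CPM in mothers, 14.1 CPM in virgin males and 31.6 CPM in virgin females. The virgin female library was high for it, with ratios of 0.517 (0.351 to 0.751) for mothers and 0.447 (0.284 to 0.684) for virgin males. Ahsa2, related to the HSP90 ATPase activator, went the other way, at 40.9 CPM in mothers, 39.1 CPM in virgin males and 23.9 CPM in virgin females. Nudc had a ratio of 0.600 (0.397 to 0.896) for mothers over virgin females, and Stip1, which joins HSP70 to HSP90, one of 1.53 (1.15 to 2.04) for virgin males over virgin females.

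Of 18 ER folding genes, 5 had an interval below 1 for mothers over virgin females and none above it, against 8.67% and 8.05% of all genes. The 5 were Calr, Canx, Atf6, Pdia4 and Ern1. Past 1.5-fold were Pdia4, with 0.438 (0.256 to 0.728), and Ern1, a sensor of the unfolded protein response, with 0.581 (0.379 to 0.880). Of 13 regulators of HSP70 measured for mothers over virgin females, Bag6 had a ratio of 2.05 (1.32 to 3.26) and Grpel2 of 1.64 (1.07 to 2.54). In that comparison 2.78% of all genes were at least 1.5-fold higher. Of 12 measured for virgin males over virgin females, Bag4 had one of 1.61 (1.09 to 2.37), against 2.23% of all genes. Of the chaperonin and prefoldin genes, none of 14 measured for mothers over virgin females, and none of 13 in each of the other comparisons, had an interval that leaves out 1. Of the heat shock factors, Hsf4 had a ratio of 1.86 (1.04 to 3.44) for mothers over virgin females on 35 and 19 UMIs, and the intervals of the others include 1.

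Immediate early genes, which neurons switch on with activity, also differed between these libraries. Of 9 measured for mothers over virgin females, 4 were at least 1.5-fold lower and none higher, against 2.87% and 2.78% of all genes. These were Fos with a ratio of 0.303 (0.158 to 0.548), Nr4a2 with 0.347 (0.226 to 0.520), Nr4a3 with 0.395 (0.238 to 0.635) and Dusp1 with 0.542 (0.333 to 0.867). For mothers over virgin males 4 of 7 were lower (Jun, Jund, Nr4a2 and Nr4a3), against 2.12% of all genes. Nr4a1 was higher, at 1.68 (1.18 to 2.43), against 2.92% of all genes. For virgin males over virgin females, Jun at 2.28 (1.34 to 3.98) and Egr1 at 1.89 (1.05 to 3.46) were higher and Nr4a1, at 0.627 (0.433 to 0.898), was lower, of 10 measured. Of all genes, 2.23% were higher and 3.26% lower by the same rule. Of 11 ubiquitin and aggregate clearance genes measured for mothers over virgin females, 1 was at least 1.5-fold lower and none higher. Among all genes 2.87% and 2.78% were so. The gene was Ubb, a polyubiquitin gene, with a ratio of 0.655 (0.501 to 0.853). Of 5 glucocorticoid-induced genes, 2 had an interval above 1 for mothers over virgin females, against 8.05% of all genes, and none below it (8.67%). These were Zbtb16, with 1.99 (1.25 to 3.22), and Fkbp5, also counted as an HSP90 cochaperone, with 1.48 (1.06 to 2.08). Zbtb16 alone was past 1.5-fold, against 2.78% of all genes. Over the neuronal nuclei, mitochondrially encoded RNA made up 0.205% of UMIs in mothers, 0.158% in virgin males and 0.225% in virgin females. The part of immediate early genes or of mitochondrial RNA in the chaperone values was not tested.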

How the data were processed

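Nuclei were processed on the 10x Chromium platform with the Single Cell 3' kit in a lane per group, per the labels' protocols, and the submitters' processing notes name Cell Ranger 5.0.1 and the builds GRCm38 and mm10. The authors deposited UMI counts per gene and nucleus for the 3 libraries, and a metadata table with UMI and gene totals, a percent of mitochondrial UMIs, cell class and cluster. How nuclei were filtered and doublets treated, and whether introns and strand were used in counting, is not stated in the labels or files. Counts and metadata were joined by these totals, which are unique for all 603 nuclei. UMIs were summed per library, or per library and cluster, over the 592 nuclei that the authors annotated as neurons, and divided by their total (CPM). In log2 ratios 0.5 UMI was added to each sum. Thinned values are exact expectations at 3000 UMIs. No nuclei were removed as doublets. Calculations used numpy 2.4.6 and scipy 1.17.1 and were tested on simulated counts. Members named are the 12 with most UMIs, those past 1.5-fold between libraries or in a cluster, and a list by role. The members and all lists were chosen with earlier results of these data known. Members whose ratio interval leaves out 1 are named too, and genes of the other lists are named as examples, both picked after their values were seen. Members at fewer than 50 UMIs were left out of ratios. Gene overlaps come from GENCODE (GRCm38) and were not given for every member above. Dnaja1 (Smu1), Dnaja4 (Wdr61) and Dnajc1 (Mllt10), for example, also overlap a gene on the opposite strand. The limit stated for Dnajc19 holds for such members too.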

Additional observations from a re-analysis of the deposited data

Results flagged for a closer look

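Dnajc5, the cysteine string protein gene, differed in opposite directions between virgin males and virgin females in a pair of clusters. In cluster 4 it was at 55.1 CPM in virgin males (10 UMIs) and 10.5 CPM in virgin females (2 UMIs), a ratio of 5.26 (1.12 to 49.4), and in cluster 1 at 41.2 CPM in virgin males and 86.1 CPM in virgin females, a ratio of 0.478 (0.273 to 0.801). The mothers' library was at 111 CPM in cluster 4 and 78.8 CPM in cluster 1. The difference between the clusters was not tested, and the cluster 4 value rests on 2 UMIs in virgin females.

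Heat shock RNA was abundant in nuclei outside the comparisons. The authors annotated 5 nuclei as ependymal cells, all in the virgin female library. They held 337 UMIs of Hsp90aa1, or 5766 CPM (5167 to 6416), against 147.1 CPM in neuronal nuclei of the same library. All 5 had UMIs of it, from 7 to 208 per nucleus. Hsp90ab1 was at 2584 CPM, Hsp90b1 at 1608 CPM, Hspa5 at 1523 CPM and Hsph1 at 633 CPM in these nuclei. Hspb1 had 15 UMIs there, against 10 over all 592 neuronal nuclei. Mitochondrial RNA made up 1.17% to 9.67% of their UMIs. With all nuclei in the sums, the log2 ratio of Hsp90aa1 for mothers over virgin females was -1.33, against -0.49 over neuronal nuclei. The virgin male library, with no nucleus annotated as ependymal, had 147.0 CPM of Hsp90aa1 in neuronal nuclei. In its neuronal nuclei 5 ependymal or choroid markers summed to 355.6 CPM, against 2.23 CPM in those of mothers and 1.10 CPM in those of virgin females. The part of these 5 nuclei in the neuronal values was not tested.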

How the results depend on the processing

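With 1 library per group the ratios carry counting error only, and members near the minimum of 50 UMIs are read least firmly. No paired analysis was possible because each group has 1 library. With clusters or nuclei weighted equally, intervals were scaled from those of the summed UMIs, so counts below that use them are approximate. Of the 23 ratios whose interval leaves out 1, 21 kept their direction in all 12 other settings, but for 11 the interval takes in 1 in at least 1 setting (Dnajb14 and Dnajc27 in 4 each, Hspa8 for mothers over virgin females and both Dnajc12 ratios in 3 each, Dnajb11 in 2, and Dnajc1, Hspe1, Hspa12a, Hsp90b1 for virgin males over virgin females and Hsp90ab1 for mothers over virgin males in 1 each). Both exceptions were Dnajc12, whose log2 ratio for mothers over virgin females became -0.10 without the 5% of nuclei with most UMIs, and for mothers over virgin males -0.080 without those and -0.0015 without the richest nucleus of each library. The members' median log2 ratio for mothers over virgin females, -0.07, became -0.12 at a minimum of 20 or of 100 UMIs, -0.029 with clusters weighted equally and -0.12 with all nuclei, and that for virgin males over virgin females became -0.11 with all nuclei. The count of members past 1.5-fold for mothers over virgin females, 1, was 0 at a minimum of 100 UMIs and without the richest nucleus, and 3 with all nuclei (Hsp90aa1, Hsp90ab1 and Dnajc12). With nuclei weighted equally and without the 5% of nuclei with most UMIs it was still 1, but the member was Hspa13, lower, in place of Dnajc12, higher. For virgin males over virgin females, the count of 0 became 2 with nuclei weighted equally, 1 without the 5% of nuclei with most UMIs and 2 with all nuclei. For mothers over virgin males, the count of 1 became 0 at a minimum of 100 UMIs and without the richest nucleus, 3 with clusters weighted equally, 4 with nuclei weighted equally and 2 without the 5% of nuclei with most UMIs. For these the cause was not tested. The count of 20 members past 1.5-fold in a cluster was 4 at 2-fold, and 24 to 26 with a library left out, where only 2 libraries had to share the direction. Of the 34 calls of a member in a cluster, 7 were lost without the richest nucleus, 1 without the nuclei rich in Ttr, 9 with nuclei weighted equally and 7 without the 5% of nuclei with most UMIs.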
